A study of Rattus norvegicus with 12 samples.

Results

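Cytochrome P450 genes were described in the kidneys of 12 male SD rats, from 2 rat models of renal fibrosis. The members were the gene entries whose symbol is Cyp followed by a digit, without the vitamin D genes Cyp24a1 and Cyp27b1, whose FPKM (fragments scaled by transcript length and by sequencing total) was 0.5 or higher for 3 or more of a table's 6 kidneys. Of 72 such symbols listed in either of the deposited tables, 37 were members. The control and adenine table kept 34 of its 57 listed P450 symbols, the sham and UUO table kept 36 of its 69, and 33 were kept in both. Cyp2d3 was kept only in the first table, and Cyp2d1, Cyp2f4 and Cyp3a9 only in the second, where Cyp2d3 is not listed, as Cyp2d1 is not listed in the first. Of the 35 symbols left out, 29 stayed under an FPKM of 0.5 in every kidney in which they are listed. Just inside the limit stood Cyp2f4, with FPKM of 0.462, 0.587 and 0.769 in the sham kidneys. Just outside it stood Cyp4x1, which reached 0.5 in 3 kidneys, 1 adenine and 2 UUO, with a highest FPKM of 0.793.

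All rats carried the wild-type genotype label, were 8 weeks old when bought, and gave 1 kidney sample each, with 3 rats per group. Adenine rats were gavaged with adenine at a daily dose of 220 mg/kg over 3 weeks, and control rats received saline. UUO (unilateral ureteral obstruction) rats were sampled 2 weeks after the left ureter had been tied, and sham rats had surgery without obstruction. The models therefore differ in agent, time and surgery together, and were compared only through each model's own fold changes.

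P450 enzymes are haem proteins that insert 1 atom of molecular oxygen into a lipid, steroid, vitamin or drug, using electrons that most of them receive from the reductase encoded by Por. In the kidney the proximal tubule holds most of these enzymes. CYP4A and CYP4F enzymes hydroxylate the far end of fatty acids and make 20-HETE from arachidonic acid, an eicosanoid that acts on vessel tone and salt transport. CYP2C and CYP2J enzymes turn the same acid into epoxides that dilate vessels, whereas CYP26 enzymes clear retinoic acid and several other families act on cholesterol and its oxidised forms.

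The tissue markers changed along with the P450 genes, in both models. Most proximal tubule markers fell (8 of 12 in the adenine model, where 1 rose, and 9 of 12 in the UUO model), their summed FPKM going from 3999 to 4420 in control kidneys to 189 to 610 in adenine kidneys, and from 4457 to 4833 in sham to 315 to 632 in UUO kidneys. Distal nephron markers fell too, 5 of 6 in the adenine and 6 of 6 in the UUO model. Their sums went from 1612 to 2212 in control to 191 to 395 in adenine, and from 2377 to 2960 in sham to 124 to 267 in UUO kidneys. All 6 macrophage markers rose in each model, and 5 of 5 listed myofibroblast markers in the adenine and 6 of 6 in the UUO model. Of all genes tested 39.6% (adenine) and 56.1% (UUO) rose, and 19.9% and 14.4% fell. All 5 urothelial markers rose in the UUO model (summed FPKM 72.0 to 145 against 0.646 to 2.67 in sham), and neither of the 2 tested in the adenine model was called (1.07 to 3.89 against 0.740 to 6.96). In whole-kidney RNA, fewer cells of a type and less RNA per cell cannot be told apart, and the part of these cell markers in the changes below was not tested. The second control kidney stood apart, with an FPKM of 12.9 for the distal tubule gene Slc12a3 against 197 and 164 in the other two. The second sham kidney had an FPKM of 3.06 for the tubular glucose transporter gene Slc5a2 against 19.6 and 29.9. Without that control kidney 7 members rose and 15 fell in the adenine model, and without that sham kidney 14 rose and 15 fell in the UUO model.

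P450 message was several-fold lower in both damaged groups. The members' FPKM summed to 3901, 4599 and 5061 in the control kidneys and to 459, 1479 and 737 in the adenine kidneys, a mean of 4520 ± 584 against 891 ± 527 (SD, n = 3). In the other table the sums were 6301, 4991 and 5720 in sham and 492, 1103 and 893 in UUO kidneys (5671 ± 656 against 829 ± 310). The groups did not overlap in either table, and the mean fell to 19.7% of control and 14.6% of sham. A single gene, Cyp4a2, held 61.0% to 70.4% of the sum in control and 60.55% to 64.7% in sham kidneys, but 24.6% to 49.0% in adenine and 28.9% to 45.95% in UUO kidneys.

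**Figure D1:**
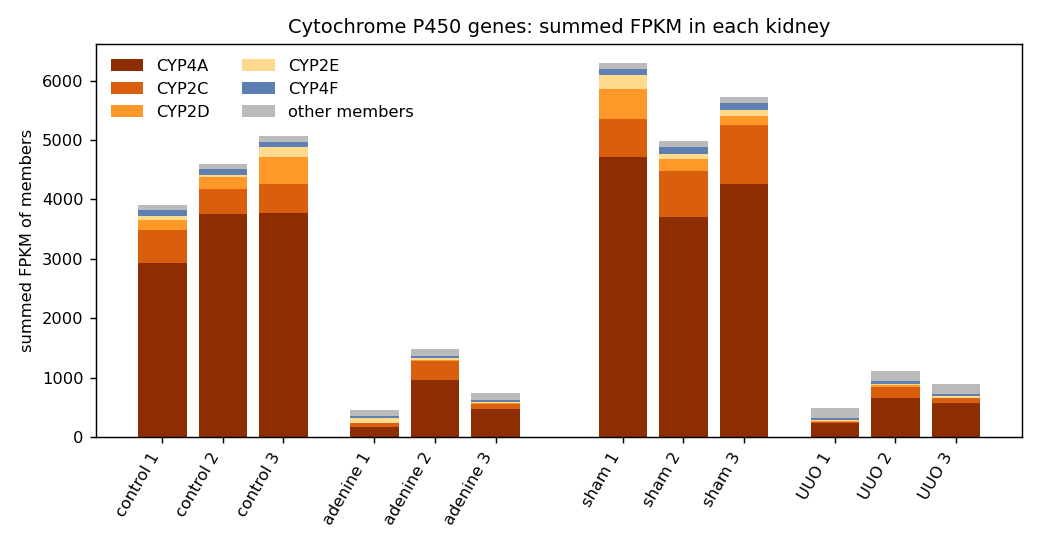
Summed FPKM of the P450 members in each of 12 kidneys (y axis, linear from 0; x axis, group and rat), stacked by subfamily, with the members outside the 5 coloured subfamilies in grey. The control and sham bars reach 3901 to 6301 and the adenine and UUO bars 459 to 1479, and CYP4A is the largest block in every bar.

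By gene, the family split into members that fell and members that rose. A member was called changed at a Benjamini-Hochberg adjusted p under 0.05 over all genes of its table (limma on log2(FPKM + 0.1)), and a DEG if its log2 fold change also reached 2 in size. These fold changes are on the log2(FPKM + 0.1) scale, which understates the change of low genes. In the adenine model 16 of 34 members fell (47.1%, against 19.9% of all genes tested) and 8 rose (23.5%, against 39.6%). DEGs were 11 that fell (32.4%, against 5.03% of all genes) and 2 that rose (5.9%, against 10.7%). In the UUO model 15 of 36 members fell (41.7%, against 14.4% of all genes) and 16 rose (44.4%, against 56.1%), and the DEGs were 10 that fell (27.8%, against 4.21%) and 4 that rose (11.1%, against 13.2%). So falls were more frequent among P450 members than among all genes, and rises less frequent, as a description of these shares. Some members met the limit only through the group where they are higher, so their calls follow in part from that limit. Through undamaged kidneys these were Cyp1a1 (adenine model) and Cyp2c11 and Cyp21a1 (both models). Through UUO kidneys they were Cyp26a1, Cyp3a9 and Cyp4f5 in the UUO model. Other called members had kidneys at an FPKM of 0.5 in the lower group too, but fewer than 3, so they also needed the higher group. Among rises these were Cyp1b1 and Cyp26b1 (both models), Cyp26a1 and Cyp4f5 (adenine model) and Cyp46a1 (UUO model). Among falls they were Cyp39a1 (adenine model) and Cyp2d5 (UUO model). Over the members the median log2 fold change stood at -0.71 (adenine) and -0.03 (UUO), beside 0.30 and 0.62 over all genes tested.

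The median over all genes was itself shifted upward, by 0.30 and 0.62, and was near 0 after median-of-ratios scaling (0.01 and 0.03). With that scaling all 16 falls of the adenine model and all 15 of the UUO model were kept, 2 and 3 were added, and the rises numbered 7 and 8. Rescaling FPKM to the same sum lost the falls of Cyp2c23 and Cyp2t1 (adenine, 14 left) and of Cyp21a1 and Cyp2s1 (UUO, 13 left). Quantile normalization also kept every one of these falls and gave 5 and 8 rises, so rises made up 21.7% of adenine calls in place of 33.3% and 29.6% of UUO calls in place of 51.6% (30.8% with median-of-ratios scaling). Under each of the 4 scalings tried 14 members were called falling in the adenine and 13 in the UUO model. Called rising under each of the 4 scalings tried were Cyp1b1, Cyp20a1, Cyp26a1, Cyp2u1 and Cyp4v3 in the adenine model, and Cyp1b1, Cyp26a1, Cyp2u1, Cyp3a9, Cyp4b1, Cyp4f5 and Cyp7b1 in the UUO model.

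**Figure D2:**
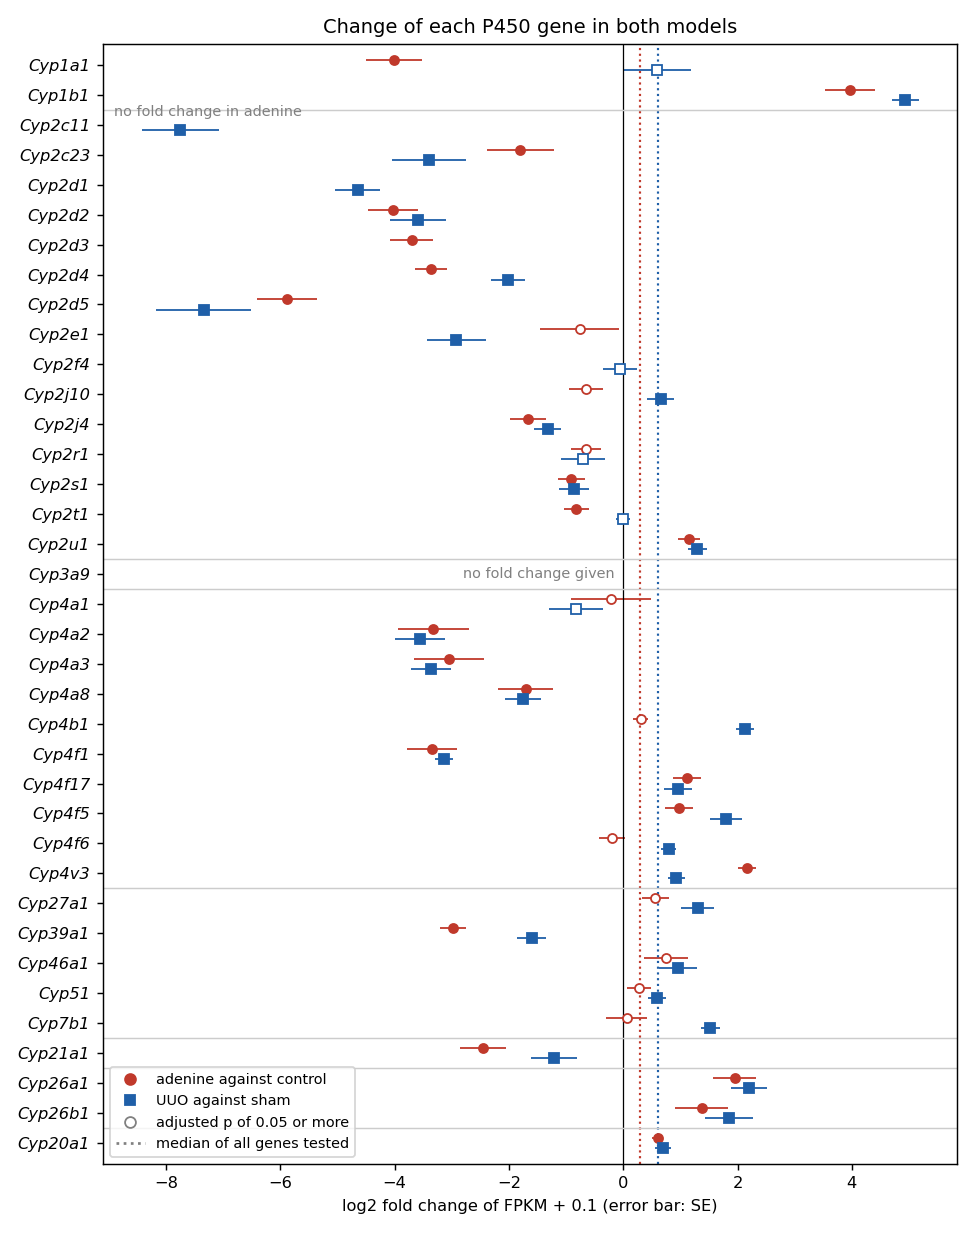
Log2 fold change of each member on the log2(FPKM + 0.1) scale (x axis) in the adenine model (red circles) and the UUO model (blue squares), with the SE as bars. Open symbols have an adjusted p of 0.05 or more and dotted lines mark the median of all genes tested, 0.30 and 0.62; values left of 0 reach -7.75 for Cyp2c11 in UUO, and the largest rise is 4.93 for Cyp1b1. No fold change is drawn where every kidney of a group is listed at 0 or at the lowest value (Cyp2c11 in adenine, Cyp3a9 in UUO). After quantile normalization the adenine values of Cyp4b1 and Cyp7b1 and the UUO values of Cyp1a1 and Cyp2j10 change sign.

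Of the 33 members tested in both models, 13 fell in both (11.4% of all genes tested in both did) and 8 rose in both (36.2% of all genes). A further 2 were called in neither, 2 were called in the adenine and not in the UUO model (11% of all genes) and 8 in the UUO and not in the adenine model (22.2%), and none in opposite directions. DEGs in both models were 7 members that fell (3.14% of all genes) and 1 that rose (7.6%).

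CYP4A genes carried most of the renal P450 message and 3 of 4 fell in each model. Cyp4a2, which encodes a 20-HETE-forming hydroxylase, had FPKM of 2379, 3237 and 3200 in control kidneys and 113, 725 and 301 in adenine kidneys. In sham kidneys it had 3958, 3022 and 3704, and in UUO kidneys 142, 464 and 410. Its groups did not overlap, and on the log2 scale it fell by 3.32 ± 0.62 (SE, limma adjusted p = 0.00384) with adenine and by 3.56 ± 0.44 (limma adjusted p = 0.000419) with UUO. The second adenine kidney kept the most Cyp4a2 of its group, and the first adenine and first UUO kidneys the least.

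Cyp4a3, which lies close to Cyp4a2 and encodes a closely similar enzyme, had a lower level, and in each damaged group the same kidneys were highest and lowest. Its FPKM was 175, 208 and 298 in control and 11.2, 68.8 and 24.4 in adenine kidneys, and 384, 197 and 226 in sham and 15.9, 32.3 and 30.1 in UUO kidneys. It fell by 3.05 ± 0.61 (SE, limma adjusted p = 0.00517) and by 3.36 ± 0.34 (limma adjusted p = 0.000187) on the log2 scale. Reads of such similar genes can be assigned to either, so their separate values are uncertain. The CYP4A sum takes these genes together. It was 2932, 3755 and 3770 in control against 170, 965 and 468 in adenine, and 4710, 3696 and 4253 in sham against 232, 661 and 578 in UUO kidneys.

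The likeness of this pair extends to the bases before their start sites, shown here because both genes fell together. Of 37 members, 32 had a promoter in the RefSeq table used (build GRCr8), and the 250 bases before the start of Cyp4a2 (chr5:134170909-134171158, minus strand) and Cyp4a3 (chr5:134352237-134352486, minus strand) are printed 5′ to 3′, with matches to the nuclear receptor half-site AGGTCA in capitals.
Cyp4a2: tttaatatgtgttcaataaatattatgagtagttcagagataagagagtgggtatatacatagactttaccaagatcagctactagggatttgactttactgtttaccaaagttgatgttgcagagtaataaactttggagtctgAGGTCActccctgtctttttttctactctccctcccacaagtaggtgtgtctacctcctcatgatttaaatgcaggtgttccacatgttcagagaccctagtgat
Cyp4a3: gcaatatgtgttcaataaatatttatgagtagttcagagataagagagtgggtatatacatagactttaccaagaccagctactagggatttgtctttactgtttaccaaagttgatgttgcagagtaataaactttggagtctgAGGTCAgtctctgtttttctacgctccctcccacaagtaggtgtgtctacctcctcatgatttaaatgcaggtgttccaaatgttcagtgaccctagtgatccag
After alignment the sequences share 236 of 255 columns (92.5%), against 57.6% for Cyp4a2 with Cyp4a8. Each holds AGGTCA once, 105 to 100 bases before the start. On either strand this half-site is found in 14.1% of all 33469 promoter windows, and in 11 of the 33 windows of members. The direct repeat of AGGTCA with 1 base between the copies is in 0.0508% of all windows and in 0 of the members' windows. These letter matches are a description and not binding sites.

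Cyp4a8, a further fatty acid hydroxylase gene next to Cyp4a2, fell less far. Its FPKM was 364, 304 and 248 in control and 40.7, 145 and 134 in adenine kidneys, and 326, 464 and 305 in sham and 65.9, 147 and 124 in UUO kidneys. It fell by 1.70 ± 0.48 (SE, limma adjusted p = 0.0203) in the adenine model, a call lost without the first control kidney or without the second (adjusted p above 0.05), and by 1.75 ± 0.32 (limma adjusted p = 0.00234) in the UUO model. Cyp4a1, the fourth CYP4A gene, did not pass the test. It had FPKM of 13.7, 6.03 and 23.4 in control and 4.98, 26.1 and 9.55 in adenine kidneys, and 41.9, 13.9 and 18.5 in sham and 7.58, 17.9 and 14.1 in UUO kidneys, and its groups overlapped in both tables. Its log2 fold changes were -0.21 ± 0.70 (adenine, limma adjusted p = 0.811, with the sign turned when FPKM was rescaled to the same sum) and -0.83 ± 0.47 (UUO, limma adjusted p = 0.153).

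Cyp4b1, which lies on chromosome 5 beside Cyp4a1 and encodes an enzyme that activates several pro-toxins, did not fall. Its FPKM was 6.97, 8.07 and 7.69 in control and 10.8, 8.53 and 8.90 in adenine kidneys, and 7.98, 6.93 and 5.95 in sham against 28.7, 27.4 and 36.5 in UUO kidneys. In the UUO model it rose by 2.13 ± 0.16 on the log2 scale (SE, limma adjusted p = 5.61e-05), and with adenine its change was 0.30 ± 0.14 (limma adjusted p = 0.0986), equal to the shift of all genes to 2 decimals and of the other sign after quantile normalization. The fold changes differed between the models by 1.83 ± 0.21 (UUO minus adenine, adjusted p = 0.000121). The urothelial, lymphocyte, endothelial, myofibroblast and macrophage marker sums were also higher in UUO than in sham kidneys. In the adenine model the lymphocyte, myofibroblast and macrophage sums were higher than in control kidneys, the endothelial sum was lower and the urothelial sums overlapped. The endothelial markers went both ways there, 2 of 4 tested being called rising and 1 falling. The part of these cell markers in the Cyp4b1 rise was not tested. On the chromosome order of the RefSeq table, Cyp4a8, Cyp4a2, Cyp4a3, Cyp4a1 and Cyp4b1 follow each other with at most 1 other protein-coding gene between neighbours, so genes that fell several-fold, did not pass the test and rose in UUO stand side by side.

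The CYP4F genes, which hydroxylate leukotriene B4 and long-chain fatty acids, showed the same kind of split. Cyp4f1, the highest of them, had FPKM of 83.9, 85.6 and 75.8 in control and 3.99, 15.6 and 8.03 in adenine kidneys, and 97.0, 106 and 91.6 in sham and 9.20, 13.7 and 10.8 in UUO kidneys. It fell by 3.35 ± 0.44 (SE, limma adjusted p = 0.000869) and by 3.13 ± 0.15 (limma adjusted p = 1.59e-05), with no overlap between groups and little spread among the undamaged rats. Its neighbour Cyp4f6 had 20.1, 16.3 and 14.3 in control and 13.0, 12.1 and 19.7 in adenine kidneys, and 12.2, 16.4 and 13.4 in sham against 23.5, 25.2 and 23.8 in UUO kidneys. Cyp4f6 rose by 0.80 ± 0.13 in the UUO model (SE, limma adjusted p = 0.00132), a rise not called under median-of-ratios scaling or quantile normalization, and was not called in the adenine model (-0.20 ± 0.22, of the other sign when FPKM was rescaled to the same sum). The difference between the models was 0.99 ± 0.25 (adjusted p = 0.0127).

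Cyp4f17 and Cyp4f5, neighbours of each other on chromosome 7, had low levels and rose in both models. Cyp4f5 went from a mean FPKM of 0.510 ± 0.034 in control to 1.11 ± 0.20 in adenine (SD, n = 3) and from 0.320 ± 0.103 in sham to 1.34 ± 0.12 in UUO kidneys, and Cyp4f17 from 1.502 ± 0.212 to 3.43 ± 1.00 and from 1.16 ± 0.18 to 2.38 ± 0.60. After quantile normalization the adenine rises of both were no longer called, nor was the UUO rise of Cyp4f17 after that or median-of-ratios scaling.

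Cyp4v3, whose human counterpart hydroxylates fatty acids and is mutated in a crystalline retinal dystrophy, rose further in the adenine than in the UUO model. Its FPKM was 6.43, 5.26 and 7.30 in control and 31.9, 28.9 and 25.3 in adenine kidneys, and 11.4, 10.98 and 8.30 in sham and 20.8, 18.6 and 19.0 in UUO kidneys. No damaged kidney overlapped with an undamaged one. On the log2 scale it rose by 2.17 ± 0.16 (SE, limma adjusted p = 8.87e-05) in the adenine and by 0.93 ± 0.14 (limma adjusted p = 0.00114) in the UUO model, the latter not called after median-of-ratios scaling. The models differed by -1.24 ± 0.21 (UUO minus adenine, adjusted p = 0.00163), a difference that kept its side of the threshold in all 16 alternatives run for it.

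**Figure D3:**
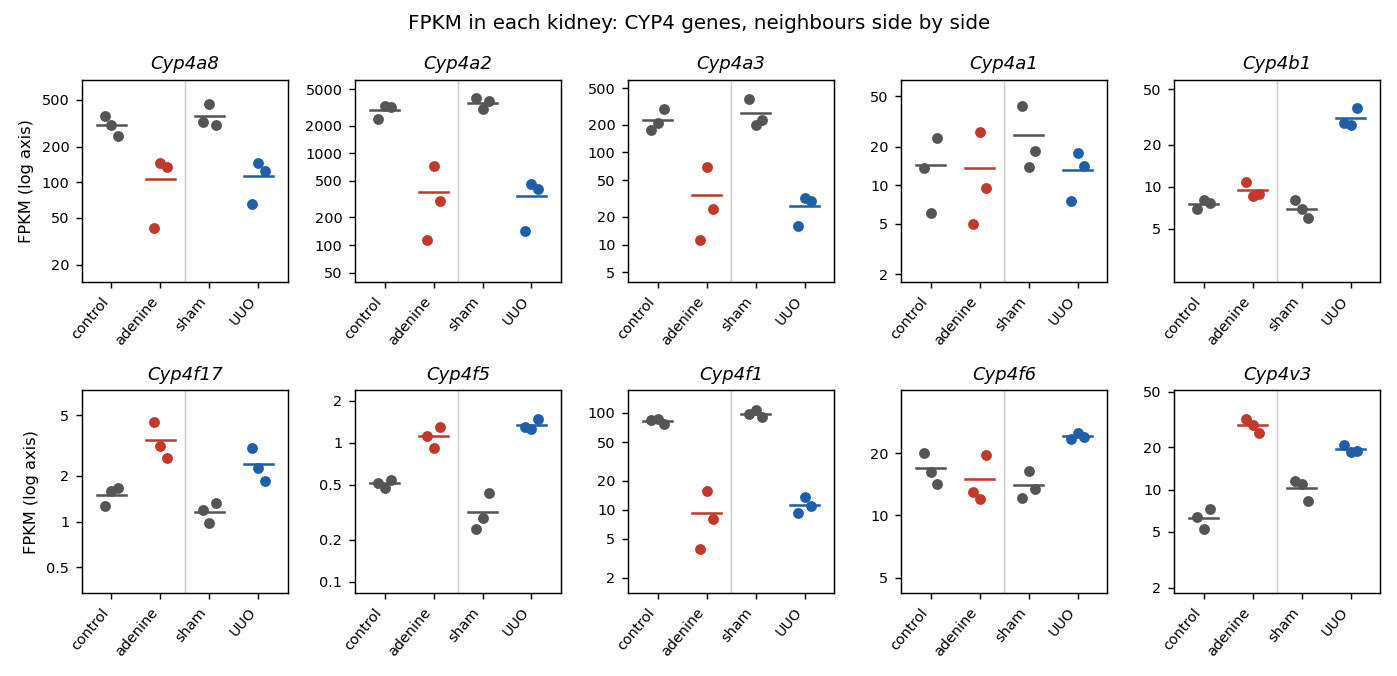
FPKM of 10 CYP4 genes (y axes, log scale, each with its own range) in the control, adenine, sham and UUO kidneys (x axis), 1 point per rat and a line at the group mean. Cyp4a2, Cyp4a3, Cyp4a8 and Cyp4f1 lie lower in adenine and UUO kidneys with no overlap, Cyp4a1 overlaps, and Cyp4b1 stands at 27.4 to 36.5 in UUO kidneys against 5.95 to 10.8 in all others.

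Among the CYP2 genes, 9 of 13 fell and 1 rose in the adenine model, and 9 of 14 fell and 2 rose in the UUO model (19.9% and 14.4% of all genes fell, 39.6% and 56.1% rose). Cyp2c23, the main arachidonic acid epoxygenase of rat kidney, was the highest. Its FPKM was 512, 308 and 458 in control and 58.8, 309 and 94.0 in adenine kidneys, so the second adenine kidney lay within the control range. It fell by 1.80 ± 0.58 on the log2 scale in the adenine model (SE, limma adjusted p = 0.0336), a call lost without any 1 of 4 kidneys (control 1, control 3, adenine 1 or adenine 3). In the UUO table the groups were apart, with 625, 743 and 901 in sham and 25.7, 187 and 73.8 in UUO kidneys, and the fall was 3.40 ± 0.65 (SE, limma adjusted p = 0.00312). The fold changes did not differ past the threshold between the models (-1.60 ± 0.87, adjusted p = 0.187).

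Cyp2c11, known as the male-specific P450 of adult rat liver and a steroid hydroxylase, was nearly or fully lost. It had FPKM of 34.6, 118 and 24.5 in control kidneys and is listed at 0 in all 3 adenine kidneys, so no fold change is given there. It had 22.6, 41.0 and 106 in sham kidneys, and in UUO kidneys it is listed at the lowest value, 0.0001, in the first and had 0.268 and 0.169 in the others. The test called a fall in both tables (limma adjusted p = 5.68e-05 and 0.000101). In both Cyp2c11 met the limit only through undamaged kidneys, so these calls are no separate support for a fall. Of 6 liver markers, the defining genes Alb and Ttr were at most 0.166 in control and sham kidneys. Serpinc1, which made up most of the list's sum, fell along with Cyp2c11 in both models (by 2.74 ± 0.55 and by 3.25 ± 0.47 on the log2 scale). Apoa1, the other liver marker tested in the UUO model, went the other way and rose there (1.61 ± 0.44, limma adjusted p = 0.0144). The list summed to 16.8 to 26.9 in control, 3.45 to 7.26 in adenine, 18.9 to 32.8 in sham and 2.26 to 5.91 in UUO kidneys, and its part in the Cyp2c11 fall was not tested.

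The CYP2D genes, which hydroxylate many basic drugs, lost most of their message in both models, and each of the 4 tested per table was a DEG that fell. Cyp2d5 had FPKM of 63.9, 50.2 and 187 in control and 0.863, 1.94 and 1.402 in adenine kidneys, and 196, 69.8 and 32.5 in sham and 0.642, 0.768 and 0.0626 in UUO kidneys. Cyp2d2 had 59.3, 61.7 and 144 against 2.99, 5.13 and 7.43, and 181, 75.1 and 71.5 against 5.89, 15.3 and 5.86. Cyp2d3, listed only in the first table, had 37.0, 59.2 and 108 in control and 4.55, 5.66 and 3.94 in adenine kidneys. Of the undamaged rats, the third control and the first sham rat had the most Cyp2d5 and Cyp2d2 in their groups. Cyp2d1, listed only in the second table, went from 106, 42.2 and 36.1 in sham to 2.38, 2.04 and 1.86 in UUO kidneys. Whether Cyp2d3 of the first table and Cyp2d1 of the second are 1 locus named differently could not be settled from the files, so their values may describe the same gene.

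On the log2 scale Cyp2d5 fell by 5.88 ± 0.52, Cyp2d2 fell by 4.03 ± 0.44 and Cyp2d3 fell by 3.70 ± 0.37 in the adenine model (SE, limma adjusted p from 0.00018 to 0.0004). In the UUO model Cyp2d5 fell by 7.34 ± 0.84, Cyp2d1 fell by 4.64 ± 0.39 and Cyp2d2 fell by 3.596 ± 0.491 (limma adjusted p from 9.08e-05 to 0.000668). Cyp2d4 had 12.1, 17.4 and 26.1 in control and 1.45, 1.68 and 1.79 in adenine kidneys, and 22.0, 10.7 and 11.1 in sham and 3.37, 4.01 and 2.75 in UUO kidneys. Its fall was larger in the adenine model, by 1.34 ± 0.41 (UUO minus adenine, adjusted p = 0.0285), a difference lost after median-of-ratios scaling and without any 1 of 6 kidneys. Cyp2d4, Cyp2d5, Cyp2d1, Cyp2d3 and Cyp2d2 follow each other without another protein-coding gene between them, and the windows before Cyp2d1 and Cyp2d3 share 89.0% of aligned bases. Reads of similar neighbouring genes can be assigned to either, which was not measured here. The CYP2D sum went from 172, 188 and 465 in control to 9.85, 14.4 and 14.6 in adenine, and from 505, 198 and 151 in sham to 12.3, 22.2 and 10.5 in UUO kidneys.

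Cyp2e1, which oxidises ethanol, acetone and small solvents, varied widely among rats of a group. Its FPKM was 64.5, 34.0 and 163 in control and 86.8, 41.7 and 20.2 in adenine kidneys, with overlapping groups and no call (-0.76 ± 0.70, limma adjusted p = 0.375). In the UUO table it had 227, 86.5 and 101 in sham and 8.51, 27.7 and 19.1 in UUO kidneys and fell by 2.92 ± 0.51 (SE, limma adjusted p = 0.00211). The difference between the models was -2.154 ± 0.864 and missed the threshold (adjusted p = 0.0785), so a change in one model alone was not shown.

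**Figure D4:**
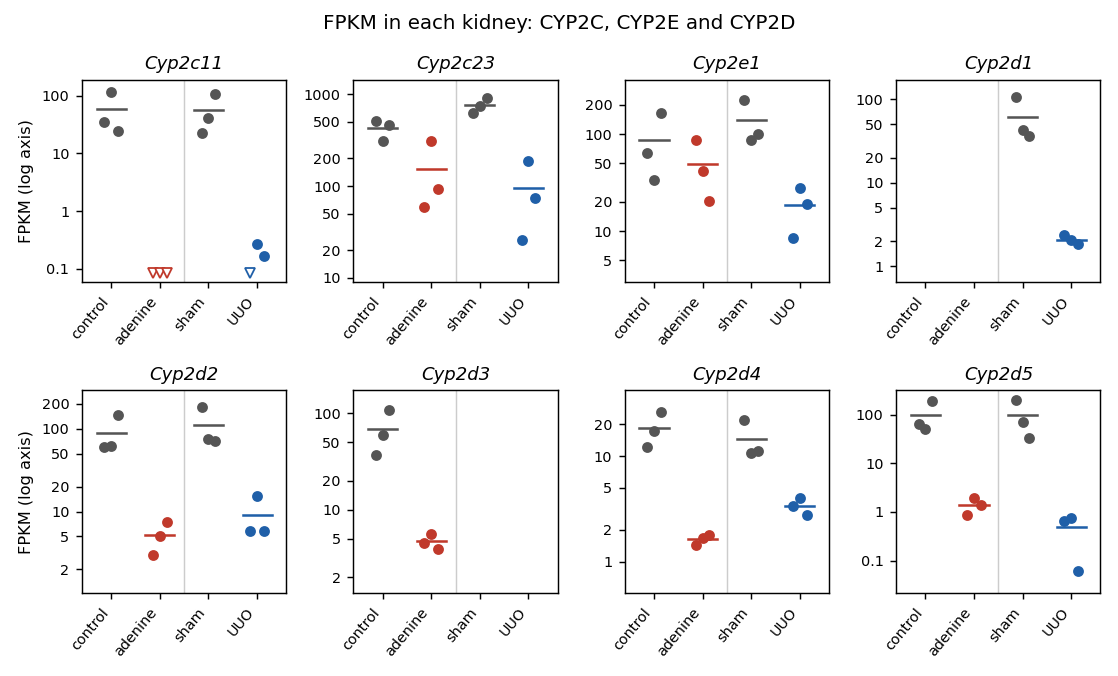
FPKM of the CYP2C, CYP2E and CYP2D genes (y axes, log scale, each with its own range) in the 4 groups (x axis), 1 point per rat and a line at the group mean. Open triangles mark kidneys listed at 0 or 0.0001, and a group with such a kidney has no mean line. Cyp2d1 and Cyp2d3 are each drawn for the 1 table that lists them. All CYP2D values of adenine and UUO kidneys lie below those of their undamaged groups, while Cyp2e1 overlaps between control and adenine.

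The remaining CYP2 genes changed less. Cyp2j4, an epoxygenase gene, fell in both models, from a mean FPKM of 12.9 ± 4.1 to 3.95 ± 1.12 and from 16.7 ± 5.2 to 6.41 ± 0.48 (SD, n = 3). Its relative Cyp2j10 had 1.55, 2.02 and 1.42 in control and 0.671, 1.13 and 1.35 in adenine kidneys, and 1.13, 0.939 and 1.57 in sham and 2.05, 1.75 and 1.98 in UUO kidneys. The Cyp2j10 change differed between the models by 1.303 ± 0.384 (adjusted p = 0.024), but its UUO rise of 0.65 ± 0.24 (SE, limma adjusted p = 0.0436) was not called under 8 of the alternatives and had the other sign after quantile normalization. Cyp2t1 had 6.18, 10.7 and 7.53 in control and 3.94, 4.67 and 4.76 in adenine kidneys, and 7.21, 6.61 and 6.24 in sham and 6.30, 6.98 and 6.66 in UUO kidneys. It fell in the adenine model (-0.82 ± 0.22, limma adjusted p = 0.0164), a call lost with FPKM rescaled to the same sum and without adenine 1. In the UUO model it was not called (-0.01 ± 0.12, of the other sign with the rescaled sums), but it was called falling there after median-of-ratios scaling and quantile normalization (-0.60 and -0.70). The difference between the models was 0.81 ± 0.25 (adjusted p = 0.0285).

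Cyp2s1 fell in both models, by 0.91 ± 0.24 and by 0.86 ± 0.27 on the log2 scale, the UUO call being lost in 6 of 15 alternatives (among them leaving out sham 2, sham 3, UUO 1 or UUO 2) and the adenine call without adenine 3. Cyp2u1, a fatty acid hydroxylase gene, rose in both, from a mean FPKM of 1.49 ± 0.27 to 3.39 ± 0.06 and from 2.10 ± 0.20 to 5.31 ± 0.60 (SD, n = 3). Cyp2r1, which encodes a vitamin D 25-hydroxylase, did not pass in either (-0.64 ± 0.26 and -0.70 ± 0.38), but was called falling in both after median-of-ratios scaling and quantile normalization, in adenine also by eBayes without trend, and in UUO also without sham 2. Cyp2f4 did not pass in the table that kept it (-0.06 ± 0.30), with the sign turned by rescaling to the same sum and a fall called after quantile normalization (-0.90). Cyp3a9, the only CYP3 member, is listed at 0.0001 in all 3 sham kidneys and had 1.11, 1.97 and 1.61 in UUO kidneys. It met the limit only through the UUO kidneys, so the call of a rise (limma adjusted p = 9.29e-05) is no separate support for one. No fold change is given. In the other table it stayed under the limit, at 0 in control and 0.109, 0.489 and 0.254 in adenine kidneys.

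The CYP1 genes went apart. Cyp1b1, a target of the aryl hydrocarbon receptor that is made mostly in mesenchymal cells and metabolises oestradiol and retinoids, had the largest fitted rise of the members for which a fold change is given. Its FPKM was 0.338, 0.903 and 0.293 in control and 5.75, 11.97 and 9.28 in adenine kidneys, and 0.297, 0.409 and 0.608 in sham and 14.95, 15.8 and 16.8 in UUO kidneys. The rise was 3.97 ± 0.44 (SE, limma adjusted p = 0.0004) and 4.93 ± 0.24 (limma adjusted p = 1.52e-05) on the log2 scale, and the damaged kidneys were far above every undamaged one. Without the damaged kidneys Cyp1b1 would not have met the limit in either table. The summed FPKM of the myofibroblast markers was also higher, going from 48.5 to 64.1 in control to 428 to 537 in adenine kidneys. In the UUO table it went from 37.2 to 81.9 in sham to 699 to 2054 in UUO kidneys. Listed in the same rat order as Cyp1b1, the sums were 428, 537 and 475 in adenine kidneys, which ranks the rats alike. In UUO kidneys they were 2054, 1452 and 699, the reverse of the Cyp1b1 ranking. All 6 macrophage markers rose in each model as well. The part of these cell markers in the Cyp1b1 rise was not tested.

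Cyp1a1, the classical target of the same receptor, moved otherwise. Its FPKM was 1.67, 3.45 and 1.11 in control kidneys and 0.0845 in the first adenine kidney, and it is listed at 0 in the other two. In sham kidneys it had 1.202, 2.05 and 2.72 and in UUO kidneys 5.40, 1.13 and 3.88, with overlapping groups. It fell in the adenine model (limma adjusted p = 0.000633, log2 fold change -4.004 ± 0.491, a size that depends on the pseudocount) and was not called in the UUO model (0.59 ± 0.59, of the other sign after quantile normalization and called rising, at 1.23, without UUO 2). The difference between the models was 4.60 ± 0.76 (adjusted p = 0.00135), and it kept its side of the threshold in all 16 alternatives run for it. In the adenine table Cyp1a1 met the limit only through control kidneys. The fall there and the difference built on it therefore follow in part from that limit, and the call is no separate support for a fall. Of the receptor's own genes, Ahr rose in the UUO model (1.25 ± 0.27, limma adjusted p = 0.0051) and was not called in the adenine model (0.43 ± 0.22, of the other sign after quantile normalization, and called rising with FPKM rescaled to the same sum and without control 2). The UUO rise of Ahr was not called after median-of-ratios scaling or quantile normalization. The partner gene Arnt rose in both models (1.56 ± 0.18 and 0.79 ± 0.09), but its UUO rise was likewise not called after either of those scalings. The repressor gene Ahrr was tested only in the UUO model and rose there by 1.79 ± 0.33 (limma adjusted p = 0.00276). That rise kept its side of the threshold in the 14 alternatives that tested it.

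The window before Cyp1b1 (chr6:21094315-21094564, plus strand, build GRCr8) is printed 5′ to 3′ because this gene rose in both models, with the core of the xenobiotic response element, GCGTG or its reverse complement, in capitals.
Cyp1b1: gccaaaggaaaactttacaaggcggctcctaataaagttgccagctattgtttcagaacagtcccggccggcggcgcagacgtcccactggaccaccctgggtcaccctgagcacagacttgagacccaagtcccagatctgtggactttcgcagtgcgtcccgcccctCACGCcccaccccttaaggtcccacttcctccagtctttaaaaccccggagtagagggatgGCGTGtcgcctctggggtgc
The core is found 2 times in the window, and on either strand it is in 25.9% of all promoter windows, so that its presence alone does not set Cyp1b1 apart.

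Both CYP26 members, which break down retinoic acid, rose in each model. Cyp26b1 had FPKM of 0.373, 0.309 and 1.12 in control and 2.02, 1.36 and 1.22 in adenine kidneys, and 1.10, 0.424 and 0.615 in sham and 4.33, 1.95 and 2.23 in UUO kidneys. Its rise was 1.37 ± 0.46 (SE, limma adjusted p = 0.0382) in the adenine model, not called in 9 of its 15 alternatives, and 1.85 ± 0.42 (limma adjusted p = 0.00645) in the UUO model. Cyp26a1 rose by 1.95 ± 0.38 and 2.20 ± 0.31, from mean FPKM of 0.441 ± 0.259 and 0.310 ± 0.051 to 1.87 ± 0.37 and 1.84 ± 0.66 (SD, n = 3). In the UUO model Cyp26a1 met the limit only through UUO kidneys, so that call is no separate support for a rise. Other genes of the retinoid pathway rose too, 6 of 11 tested in the adenine and 10 of 12 in the UUO model (39.6% and 56.1% of all genes rose), with 0 and 1 that fell. Among them Aldh1a2, which makes retinoic acid, rose by 2.62 ± 0.34 and 2.93 ± 0.13 on the log2 scale, and Stra6, a receptor for retinol uptake, by 5.74 ± 0.58 and 3.55 ± 0.68. Its relative Aldh1a1 was the 1 that fell in the UUO model (-1.54 ± 0.24, limma adjusted p = 0.00125). It was not called in the adenine model (-0.87 ± 0.40, limma adjusted p = 0.0983). The list's summed FPKM overlapped between groups, with 177 to 379 in control and 277 to 411 in adenine kidneys. In the UUO model it was 356 to 519 in sham and 451 to 566 in UUO kidneys.

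The sterol P450 genes were mixed. Cyp39a1, which hydroxylates 24-hydroxycholesterol, fell in both models, with FPKM of 4.29, 4.97 and 4.36 in control and 0.621, 0.366 and 0.506 in adenine kidneys, and 2.55, 3.32 and 4.77 in sham and 1.09, 0.973 and 1.14 in UUO kidneys. Its fall of 2.98 ± 0.23 (SE, limma adjusted p = 0.000107) in the adenine model was larger than that of 1.601 ± 0.258 (limma adjusted p = 0.00142) in the UUO model, a difference of 1.38 ± 0.34 (adjusted p = 0.0112). Cyp7b1, an oxysterol 7-alpha-hydroxylase gene, had 2.40, 2.29 and 2.59 in control and 1.43, 3.99 and 2.81 in adenine kidneys, and 2.11, 2.145 and 1.896 in sham and 6.16, 5.24 and 6.93 in UUO kidneys. It rose in the UUO model (1.52 ± 0.16, limma adjusted p = 0.000225) and was not called in the adenine model (0.06 ± 0.36, of the other sign after median-of-ratios scaling or quantile normalization), and the models differed by 1.46 ± 0.39 (adjusted p = 0.0154).

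Cyp51, the lanosterol demethylase of cholesterol synthesis and the sterol member with the highest mean in control and sham kidneys, had 9.42, 9.79 and 7.54 in control and 9.69, 14.5 and 8.96 in adenine kidneys, and 7.47, 11.2 and 9.91 in sham and 14.05, 14.4 and 14.3 in UUO kidneys. It rose by 0.60 ± 0.16 in the UUO model (SE, limma adjusted p = 0.0128), a rise about equal to the shift of all genes and not called after either median-of-ratios scaling or quantile normalization, and was not called in the adenine model (0.28 ± 0.21, of the other sign after median-of-ratios scaling). Cyp27a1, the sterol 27-hydroxylase gene, and Cyp46a1, the cholesterol 24-hydroxylase gene, rose in the UUO model (1.302 ± 0.288 and 0.954 ± 0.334), and neither rise was called after those scalings. Neither change differed past the threshold between the models (adjusted p = 0.159 and 0.799), and Cyp27a1 was also called rising in the adenine model after rescaling to equal sums and without control 3. The UUO rise of Cyp46a1 (limma adjusted p = 0.0373) was called in only 5 of its 14 alternatives. It was lost, among others, without sham 2, sham 3, UUO 1, UUO 2 or UUO 3. Of the other 18 genes of cholesterol synthesis, 3 rose and 7 fell in the adenine model and 7 rose and 5 fell in the UUO model (39.6% and 56.1% of all genes rose, 19.9% and 14.4% fell), Dhcr7 falling in both (-2.35 ± 0.38 and -1.61 ± 0.29). Cyp8b1, a bile acid gene below the limit, had 1.498, 2.36 and 0.430 in control and 0.110, 0 and 0.0872 in adenine kidneys. It had 0.229, 1.23 and 1.44 in sham kidneys and is listed at 0.0001 in all 3 UUO kidneys.

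Cyp21a1, the steroid 21-hydroxylase gene of the adrenal cortex, was the only steroidogenic member. Its FPKM was 0.613, 1.73 and 1.14 in control and 0.137, 0.103 and 0.103 in adenine kidneys, and 1.58, 0.646 and 0.780 in sham and 0.493, 0.327 and 0.248 in UUO kidneys. It fell by 2.46 ± 0.40 (SE, limma adjusted p = 0.00215) in the adenine and by 1.21 ± 0.41 (limma adjusted p = 0.0316) in the UUO model, the latter call lost without any 1 of 4 kidneys. In both tables Cyp21a1 met the limit only through undamaged kidneys, so these calls are no separate support for a fall. Of 5 adrenal cortex markers listed, Star, Nr5a1, Mc2r and Akr1b7 were at most 0.392 in undamaged kidneys, but Mrap had 24.5 to 35.7 in control and 20.9 to 42.6 in sham kidneys and fell in both models (by 4.09 ± 0.52 and by 4.22 ± 0.32 on the log2 scale). The list summed to 24.8 to 36.0 in control, 2.47 to 3.52 in adenine, 20.9 to 43.0 in sham and 1.85 to 3.22 in UUO kidneys, and its part in the Cyp21a1 fall was not tested. Cyp20a1, an enzyme of unknown substrate, had 14.3, 13.5 and 13.3 in control and 22.1, 20.3 and 20.5 in adenine kidneys, and 14.4, 20.4 and 18.6 in sham and 29.3, 27.8 and 29.0 in UUO kidneys. It rose by 0.61 ± 0.10 (SE, limma adjusted p = 0.00188) and 0.70 ± 0.14 (limma adjusted p = 0.0034), the UUO rise being close to the shift of all genes and not called after median-of-ratios scaling or quantile normalization.

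**Figure D5:**
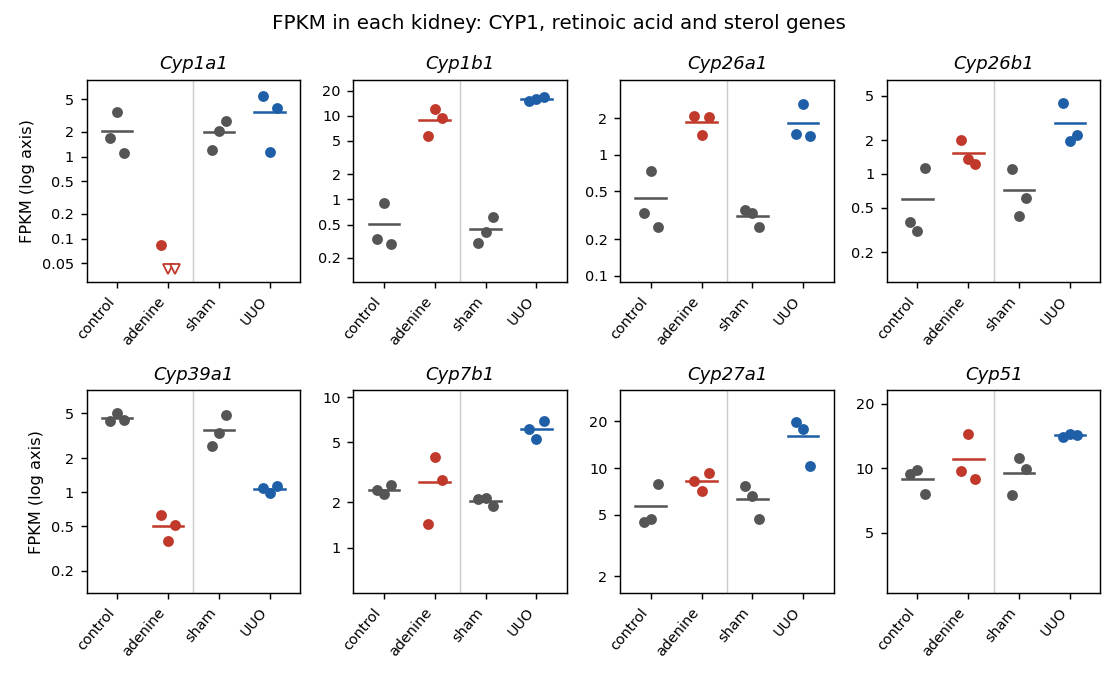
FPKM of the CYP1, retinoic acid and sterol genes (y axes, log scale, each with its own range) in the 4 groups (x axis), 1 point per rat, a line at the group mean and open triangles for kidneys listed at 0. A group with such a kidney has no mean line. Cyp1b1 rises to 5.75 to 11.97 in adenine and 14.95 to 16.8 in UUO kidneys, whereas Cyp1a1 is near 0 in adenine kidneys and 1.13 to 5.40 in UUO kidneys.

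The change differed between the models for 9 of the 33 members tested in both, a share near the 27% of all genes, so this count says nothing particular to the P450 members. They were Cyp4b1, Cyp1a1, Cyp4v3, Cyp39a1, Cyp4f6, Cyp7b1, Cyp2j10, Cyp2d4 and Cyp2t1, and 8 of these 9 differences were toward a higher value in UUO. The exception was Cyp4v3. After median-of-ratios scaling, which removes the unequal shift of the models, 5 differed (Cyp1a1, Cyp39a1, Cyp4b1, Cyp4v3 and Cyp7b1).

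Genes that serve the P450 enzymes also changed. Of 9 electron donor genes, 7 fell in the adenine and 5 in the UUO model (19.9% and 14.4% of all genes), with 0 and 1 that rose. Por, the common reductase gene, fell little, from a mean FPKM of 50.2 ± 6.8 to 34.8 ± 2.5 in the adenine and from 62.1 ± 8.7 to 46.1 ± 2.8 in the UUO table (SD, n = 3). Cyb5a, which encodes cytochrome b5, fell from 435 ± 20 to 123 ± 12 and from 502 ± 50 to 167 ± 15.7. Fdx1, the electron carrier of mitochondrial P450s, fell from 37.5 ± 1.2 to 14.6 ± 2.1 and from 38.5 ± 4.4 to 18.8 ± 2.9. So these 3 donor genes lost a smaller part of their message than Cyp4a2 did.

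Of 8 haem synthesis genes 5 fell in each model (19.9% and 14.4% of all genes), Alad and Ppox among them, and 1 rose in the UUO model. Hmox1, which degrades haem, rose from 3.86, 3.36 and 1.899 to 60.7, 32.0 and 47.5 in the adenine table and from 1.34, 4.25 and 3.86 to 48.2, 21.5 and 27.2 in the UUO table. Flavin monooxygenase genes, a separate family of drug-oxidising enzymes, fell as well, 4 of 5 in the adenine and 3 of 5 in the UUO model, against the same shares of all genes.

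Transcription factor genes known to act on P450 genes moved in both directions. Of 18 tested in the adenine model 4 rose and 7 fell, and of 19 in the UUO model 9 rose and 6 fell. Of all genes 39.6% and 56.1% rose and 19.9% and 14.4% fell, so rises were less frequent in this list than among all genes. Hnf4a, a nuclear receptor of proximal tubule and liver, fell from 143, 116 and 110 to 9.93, 40.5 and 28.8 and from 156, 183 and 157 to 31.6, 59.5 and 43.4. Its lowest values were in the first adenine and first UUO kidneys, as for Cyp4a2 and for the proximal tubule marker sums (189 and 315). A link between them was not tested. Ppara, the receptor through which fibrates induce CYP4A genes, fell in the UUO model (-0.90 ± 0.19, limma adjusted p = 0.0052) and was not called in the adenine model, where its groups overlapped (0.06 ± 0.55, of the other sign after median-of-ratios scaling or quantile normalization).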

How the data were processed

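Kidney poly(A) RNA of 12 rats was sequenced, and groups were taken from the labels (3 rats each). The authors deposited FPKM values per gene in 2 tables that were normalised separately, and read counts were not used here. The depth behind each value is therefore unknown, and precision rests on the spread between rats. The submitters' processing notes name cutadapt 1.9, HISAT2 2.0.4, StringTie 1.3.4d, edgeR and DESeq2. Genome build and annotation are not given in the sources used here. FPKM is relative to the library total, so a fall of very high genes raises others, and near-identical genes can share reads.

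Each table was fitted with limma 3.58.1 (R 4.3.3, lmFit and eBayes with trend) on log2(FPKM + 0.1). Entries entered the fit when 3 or more of 6 kidneys had an FPKM of 0.5 or more, which left 15029 and 15043, and p-values were adjusted by Benjamini-Hochberg over each table. To compare models, the difference of the log2 fold changes was divided by its standard error, with summed degrees of freedom and adjustment over 13486 symbols. The procedures were tested on simulated data, where this difference test made more false calls than its nominal rate. Alternatives were other pseudocounts, filters and scalings, a replicate block and leaving out each kidney.

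Values in every kidney are given for the 10 largest non-overlapping changes per model, the highest member of each role group, members that differed between models, and Cyp8b1, Cyp2e1 and Cyp4a8. Members and gene lists were chosen with earlier results of these data known. Some results are not reported here.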

Additional observations from a re-analysis of the deposited data

Results flagged for a closer look

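The following log2 fold changes differed between the models by the test of the difference itself (UUO minus adenine, adjusted p under 0.05 over all genes tested in both). Cyp4b1 differed by 1.83, with an adjusted p of 0.000121. Cyp1a1 differed by 4.60, the size resting on values of 0 in 2 adenine kidneys, and met the adenine table's limit only through control kidneys. Cyp4v3 differed by -1.24, Cyp39a1 by 1.38 and Cyp7b1 by 1.46. Cyp4f6 differed by 0.99, Cyp2j10 by 1.303, Cyp2d4 by 1.34 and Cyp2t1 by 0.81, and these last 4 were no longer past the threshold after median-of-ratios scaling. Leaving out 1 kidney in turn also ended the call for Cyp2d4, Cyp2j10 and Cyp2t1.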

How the results depend on the processing

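Of the members' fold changes and differences under all alternatives, 1067 kept their direction and side of the threshold, 83 lost a call, 17 gained one and 19 changed sign. Counts within 1.5 times of the reported ones are not repeated.

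Scaling mattered most for rises. Rises in the adenine model were 5 after quantile normalization, and DEGs that rose were 1 after it or median-of-ratios scaling. Rises in the UUO model were 8 under either, and DEGs that rose there were 2 under either and 1 with a pseudocount of 1. Members that differed between the models were 5 after median-of-ratios scaling. The following fold changes, none past the threshold under that setting, changed sign. In the adenine model these were Cyp51 (-0.010) and Cyp7b1 (-0.22) after median-of-ratios scaling, Cyp4b1 (-0.012), Cyp7b1 (-0.45) and Ahr (-0.033) after quantile normalization, and Cyp4a1 (0.057) and Cyp4f6 (0.072) with rescaled sums. Ppara gave -0.018 with a pseudocount of 1, -0.21 after median-of-ratios scaling and -0.50 after quantile normalization. In the UUO model they were Cyp1a1 (-0.23) and Cyp2j10 (-0.20) after quantile normalization, and Cyp2f4 (0.13) and Cyp2t1 (0.21) with rescaled sums. The cause was not tested.

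Leaving out each kidney in turn gave 7 to 9 rises and 14 to 16 falls in the adenine model (DEGs 2 to 3 and 11 to 13), 14 to 15 rises and 13 to 15 falls in the UUO model (DEGs 4 to 5 and 9 to 10), and 6 to 10 differences between the models, an alternative chosen after seeing the data. Cyp4a1 then ranged from -0.85 to 0.34 and Cyp7b1 from -0.26 to 0.45 and Ppara from -0.33 to 0.66 in the adenine model. Cyp2t1 ranged from -0.055 to 0.049 and Cyp2f4 from -0.21 to 0.11 in the UUO model.

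Deviations of same-numbered kidneys from their group means had correlations of -0.12 to -0.05 in the first table and 0.05 to 0.11 in the second. Differently numbered kidneys had -0.04 to 0.11 and -0.08 to 0.02, so the same-numbered values were the higher ones in the second table only. With 3 kidneys per group, such small correlations cannot settle whether the numbers pair rats. With the replicate block, 7 members rose and 15 fell in the adenine model, 14 rose and 15 fell in the UUO model, and 10 differed between them. Satterthwaite degrees of freedom, also chosen after seeing the data, gave 9. With 3 rats a group and no read totals, small changes and values near 0 are imprecise.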

Other observations

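Some P450 genes differed several-fold among undamaged rats, a pattern chosen after the values were seen and given without a test. The third control and the first sham rat had the highest FPKM of Cyp2d2 (144 and 181) and Cyp2d5 (187 and 196) in their groups, and the highest Cyp2e1 (163 and 227) and Cyp4a1 (23.4 and 41.9). The same rats had the lowest FPKM of Cyp2c24, a symbol left out by the limit, at 0.205 and 0.1003 against 10.4 to 27.5 in the other undamaged rats. They also had the lowest Ephx2, the gene of soluble epoxide hydrolase, which removes the epoxides made by CYP2C enzymes, at 6.56 and 5.67 against 48.5 to 118. Cyp2b2, likewise under the limit, reached 2.24 and 0.724 in these 2 rats and at most 0.144 in the other undamaged rats.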
